A study of Mus musculus with 8 samples.

Results

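The comparison described here is the loss of the interleukin-10 gene (Il10) in the colon of C3H/HeJBir mice, read from 4 of the 8 pooled RNA samples of the study. The members are the 2 pools labelled C3H/HeJBir-Il10tm1Cgn, called null here, and the 2 pools labelled C3H/HeJBir, called wild type; they were chosen by title alone. RNA of total colon was pooled in equal amounts of 7 µg from 4 animals for each wild-type pool, from 5 animals for the sample 1 null pool and from 4 animals for the sample 2 null pool. Il10tm1Cgn is a targeted null allele carried through the whole body, so every cell type of the null colon carried it, and no treatment is named. The other 4 pools are C57BL/6J colon with and without the same allele, and they serve here as an estimate of spread and for side-by-side values. The labels call the sample 1 and sample 2 pools independent experiments, and they give neither the age nor the sex of the C3H/HeJBir mice, nor whether the wild-type mice were littermates. The one age given in the series, 4 weeks, belongs to the wild-type C57BL/6J pool of sample 2.

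Interleukin-10 is a cytokine of T cells and macrophages that signals through its receptor and Stat3 and restrains inflammatory gene expression. Mice without it develop colitis driven by the gut flora, with T cells that make interferon gamma, and interferon gamma in turn induces MHC class II genes, guanylate-binding proteins and chemokines. C3H/HeJBir is a substrain of C3H/HeJ, which carries a defective Tlr4, the receptor for bacterial lipopolysaccharide, and it is known as a background on which this colitis is severe.

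Each pool was hybridised to 1 Affymetrix MG_U74Av2 array, which gives 1 intensity per probe set, a group of oligonucleotides against 1 transcript. Intensities are on the deposited linear scale, and within each group the sample 1 value is given before the sample 2 value. A log2 difference is null minus wild type after adding 11.07 to each intensity, so 1 unit is a doubling and the changes of weak genes are understated. Of 12422 probe sets, 7453 averaged 37.03 or more across all 8 arrays and were tested with limma; a probe set was called at a Benjamini-Hochberg adjusted p under 0.05. With 2 pools against 2, an exact two-sided permutation test of a single gene cannot go below 0.333, so single genes rest on the spread that limma shares among probe sets. The tissue label was checked against markers: Tff3, of goblet cells, lay between 7831 and 8767 in the 4 pools, Car1, of colonocytes, between 6956 and 8028, and Krt20, of surface epithelium, between 3992 and 7558. The intestinal factor Cdx2 was weak, between 27.4 and 66.4, and Fabp2, a fatty acid-binding protein strongest in the small intestine, lay between 1047 and 2023.

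The 4 pools were not equally alike. The sample 1 null pool had Spearman correlations of 0.919 to 0.921 with the other C3H/HeJBir pools, whereas the sample 2 null and wild-type pools reached 0.964 with each other. The log2 differences between null and wild type had a standard deviation of 0.59 over the tested probe sets in sample 1 and of 0.39 in sample 2. The sample 1 null pool and the sample 1 wild-type pool were hybridised on different days and the sample 2 pools on 1 further day, so the sample 2 pair alone compares the genotypes within a day. In sample 1, 283 probe sets (3.8%) were higher in the null pool by over 1 log2 unit and 343 (4.6%) were lower; in sample 2 these numbers were 69 (0.926%) and 89 (1.19%). Past 1 unit in both pairs were 12 probe sets (0.161%) in the higher direction and 7 (0.0939%) in the lower, and 3724 of 7453 (50%) had the same sign in both pairs. In 845 probe sets (11.3%) both null pools lay above both wild-type pools and in 894 (12%) both lay below, which together is 23.3%. These shares are the background for every count of genes below, and the 2 sample pairs are given one by one throughout.

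**Figure D1:**
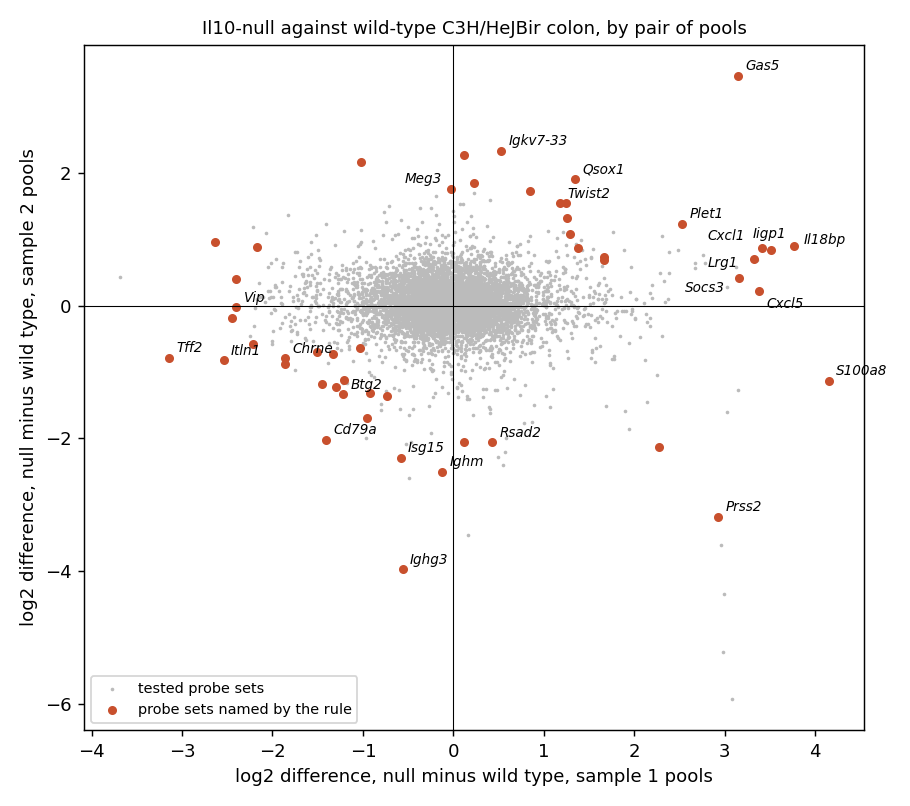
Log2 difference between null and wild type in the sample 2 pools (vertical) against that in the sample 1 pools (horizontal) for the 7453 tested probe sets, grey, with the probe sets chosen by the naming rule in red. Gas5 stands at 3.15 and 3.47, whereas S100a8 stands at 4.15 and -1.13, and Prss2 at 2.93 and -3.18.

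One probe set passed the threshold, and it reads Gas5, a noncoding transcript of the growth-arrest-specific 5 locus whose introns hold small nucleolar RNAs. Its intensities were 86.4 and 120 in the wild-type pools and 855 and 1440 in the null pools. Both null pools thus lay far above both wild-type pools. The log2 difference was 3.31 ± 0.33 (SE; limma adjusted p = 0.045), and 1 call among 7453 is 0.0134%. None was called lower (0%), while 103 probe sets (1.38%) were lower and 108 (1.45%) higher at an unadjusted limma p under 0.05, in all 2.83%. In C57BL/6J the same probe set read 1065 and 1362 in the wild-type pools and 998 and 1351 in the null pools. The C3H/HeJBir null pools were thus near the C57BL/6J level, and the C3H/HeJBir wild-type pools lay far below it. In C57BL/6J the difference between null and wild type was -0.05. The difference between the strains' effects was 3.36 with a limma adjusted p of 0.48. No probe set was called for a difference between the strains (0%), and 112 (1.5%) had an unadjusted limma p under 0.05. After Gas5 the smallest of these belonged to Gga2, an adaptor of the trans-Golgi network, whose difference was -0.36 in C3H/HeJBir and 1.56 in C57BL/6J, and to Chrne, a subunit of the acetylcholine receptor of muscle, at -1.32 and 0.87. The 2 other Chrne probe sets were too weak to be tested.

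The Gas5 call depended on its probe set and on the fit. A second Gas5 probe set read 37.1 and 14.6 in the wild-type pools and 75.4 and 74.3 in the null pools, a difference of 1.29 that was not called, and another, too weak to be tested, differed by -0.17. With the hybridisation day as a block the difference was 3.41 and its limma adjusted p was 0.132. Within that one day, in the sample 2 pools, the difference was 3.47. The call was kept without the sample 2 null pool (2.94) and lost on leaving out any other of the 8 pools in turn, with differences between 3.10 and 3.68.

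Among tested probe sets with 1 gene symbol, those with the widest gap between the groups were set apart next; the gap is the distance from the lowest pool of the higher group to the highest pool of the lower group. Of all 7453 tested, it exceeded 1 log2 unit for 7 probe sets (0.0939%) in the higher direction and for 3 (0.0403%) in the lower. None of those described in this and the following paragraphs was called apart from Gas5; all had a limma adjusted p of 0.999, and their values are given as a description. Plet1, a surface protein of colonic and placental epithelium, read 815 and 842 in the wild-type pools and 4760 and 2002 in the null pools. Its difference was 1.88 ± 0.38 (SE), against 0.69 in C57BL/6J, and both null pools exceeded the wild-type pools by more than 1 unit. Qsox1, a secreted sulfhydryl oxidase, read 41.1 and 49.6 against 121 and 216, although a second tested probe set of the gene differed by only 0.32. Twist2, a transcription factor of mesenchymal cells, read 42.9 and 30.1 against 112 and 109, so here the null pools were nearly equal. Padi4, an enzyme that citrullinates histones, read 19.2 and 9.57 against 60.8 and 49.5, all weak signals.

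Genes of inflammation with a wide gap were carried further by the sample 1 pools. Il18bp, which binds and blocks interleukin-18, read 18.6 and 83.2 in the wild-type pools and 394 and 165 in the null pools. Cxcl1, a chemokine that attracts neutrophils, read 3.7 and 18.7 against 146 and 43.8. Iigp1, an interferon-inducible GTPase, read 71.9 and 155 against 932 and 287. On these probe sets both null pools were above both wild-type pools, and the log2 differences in sample 1 (3.77, 3.41 and 3.51) exceeded those in sample 2 (0.90, 0.88 and 0.84). The Cxcl1 probe set, with a mean of 37.65 over the 8 arrays, was only just above the filter, which its sample 1 null value brought about. A second Cxcl1 probe set was too weak to be tested and overlapped, at 7.05 and 25.95 against 89.7 and 16.6.

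In the lower direction the widest gap belonged to Cd79a, the signalling chain of the B cell receptor. It read 97.2 and 113 in the wild-type pools and 29.6 and 19.6 in the null pools, a difference of -1.72 ± 0.54 (SE). Its probe set passed the filter only through the C3H/HeJBir wild-type values. Btg2, an antiproliferative immediate early gene, read 774 and 922 against 325 and 359, and the differences of its pairs, -1.22 and -1.33, were nearly equal. Tor3a, a torsin of the endoplasmic reticulum, read 237 and 190 against 89.7 and 75.3, and a second probe set near zero was not tested. Ifi27l2a, an interferon-induced gene, read 471 and 412 against 198 and 184. These last 3 genes were lower to about the same extent in both pairs, unlike Tff2, a trefoil peptide of mucous cells. Tff2 read 272 and 143 in the wild-type pools and 21.1 and 78.8 in the null pools, a difference of -3.14 in sample 1 and of -0.78 in sample 2. The Tff2 probe set, too, passed the filter only through the C3H/HeJBir wild-type values. Efna1, an ephrin ligand, read 255 and 245 against 82.6 and 148, and its null pools were lower in both pairs. Ly6g6c, a surface protein of the Ly6 family, was lower in both null pools too, at 293 and 247 against 138 and 155.

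Of the 24 probe sets with the widest gap, 12 in each direction, 8 (33.3%) read genes of chromosome 1, the chromosome that also carries Il10. On that chromosome lay 354 of 6720 tested probe sets with a known chromosome (5.27%) and 94 of the 1576 whose pools did not overlap (5.96%). With Il10 placed among them, their order in the RefSeq annotation is Twist2, Il10, Btg2, Nr5a2, Acbd6, Qsox1, Tor3a and Gas5; 2 of the 8 probe sets read Gas5. This grouping by chromosome was looked for after the values were seen, and its cause was not tested. Nr5a2, a nuclear receptor of the gut epithelium, read 35.4 and 50.03 in the wild-type pools and 5.88 and 15.99 in the null pools. A second, brighter tested probe set of Nr5a2 read 135.7 and 168.1 against 84.5 and 134.7, a difference of only -0.46. Acbd6, an acyl-CoA-binding protein, read 69.6 and 51.1 against 21.0 and 26.4. Its probe set passed the filter only through the C3H/HeJBir wild-type values. In C57BL/6J the differences between null and wild type were small for all of them: -0.03 for Twist2, -0.18 for Btg2, -0.23 for Nr5a2, 0.21 for Acbd6, -0.09 for Qsox1 and -0.23 for Tor3a.

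Il10 itself was near the lower end of the scale on all arrays and was not tested. It read 5.43 and 10.9 in the wild-type pools and 28.3 and 35.4 in the null pools. No source used here places the probes relative to the targeted part of the gene, so these values check neither the allele nor the labels.

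**Figure D2:**
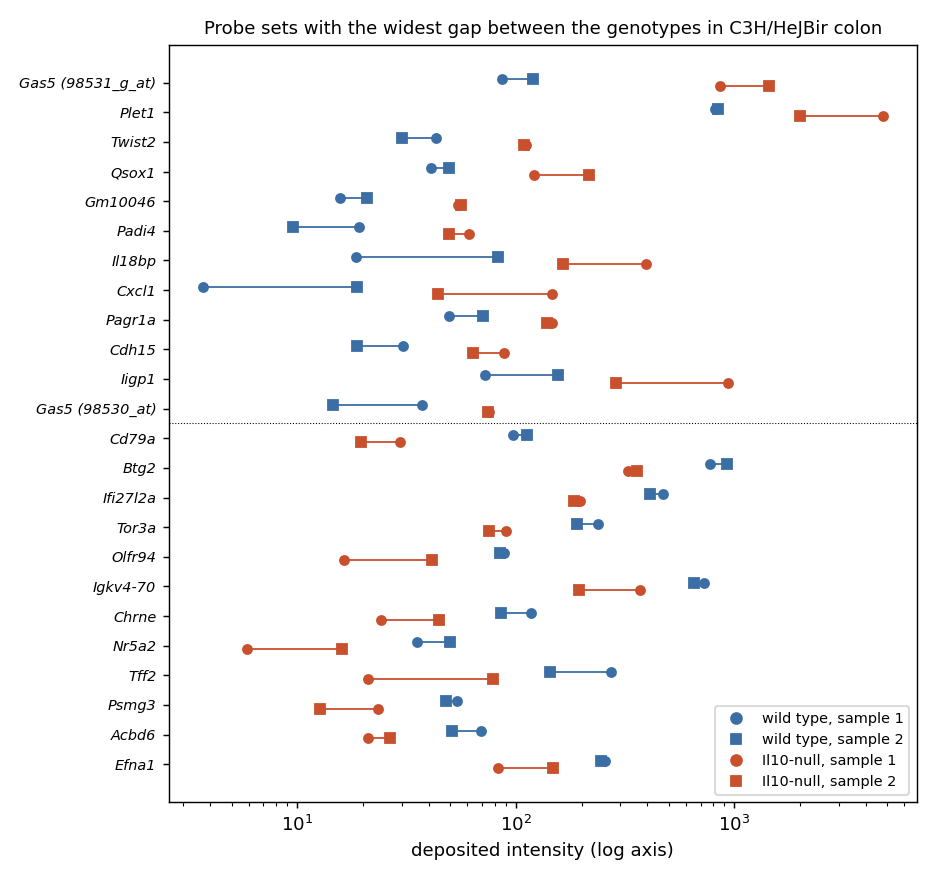
Intensity in each of the 4 C3H/HeJBir pools (log axis) for the 24 probe sets with the widest gap between the genotypes, 12 higher in the null pools above the dotted line and 12 lower below it; circles are sample 1 pools and squares sample 2 pools. Gas5 has wild-type values of 86.4 and 120 and null values of 855 and 1440, and in no row do the genotypes overlap.

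All 7 tested MHC class II genes, which serve the presentation of peptides to CD4 T cells, had a higher value in the null pool in both sample pairs, and the differences were larger in sample 1 for all but Ctss. Among them 5 had both null pools above both wild-type pools and none had them below, against 11.3% and 12% of all tested probe sets; 0 were called and 4 had an unadjusted limma p under 0.05. Their median difference was 1.40, made up of 2.29 in sample 1 and 0.50 in sample 2, against -0.01 over all tested probe sets. Without the sample 1 null pool the median was 0.66, and without the sample 2 null pool it was 2.14. H2-Aa, the alpha chain of the I-A molecule, read 594 and 761 in the wild-type pools and 3834 and 1203 in the null pools. Cd74, the invariant chain that guides class II molecules to endosomes, read 583 and 1079 against 3776 and 1605. H2-DMb1, a chain of the peptide-exchange factor, read 67.5 and 105 against 675 and 161. All 3 genes were highest in the sample 1 null pool, with differences of 1.66 ± 0.67, 1.62 ± 0.58 and 1.85 ± 0.71 (SE). Cathepsin S (Ctss), the protease that cuts the invariant chain, read 2727 and 3190 against 2756 and 3391. The list has 11 genes on the array, and the rest were too weak to be tested. These went the other way, with differences of -0.90 for H2-Oa, -0.87 for H2-Ob, -0.18 for H2-Ea and -0.16 for H2-DMb2. In C57BL/6J the median of the tested genes was 1.23, and there H2-Aa and Cd74 were highest in the sample 2 null pool. H2-Aa read 479 and 376 in the C57BL/6J wild-type pools and 517 and 1975 in the null pools. Cd74 read 529 and 399 against 940 and 2718.

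The promoters of H2-DMb1 and H2-Aa are shown as those of the class II genes with the largest differences; they were picked after the motif search, among genes that held a match, as were the other promoters printed here. Each runs from 250 bases before to 50 bases after the RefSeq transcription start (build GRCm38.p6), and capitals mark the CCAAT box, the letters bound by NF-Y, or its reverse complement. The H2-DMb1 window is chr17:34152941-34153240 on the plus strand and the H2-Aa window chr17:34287774-34288073 on the minus strand.
H2-DMb1: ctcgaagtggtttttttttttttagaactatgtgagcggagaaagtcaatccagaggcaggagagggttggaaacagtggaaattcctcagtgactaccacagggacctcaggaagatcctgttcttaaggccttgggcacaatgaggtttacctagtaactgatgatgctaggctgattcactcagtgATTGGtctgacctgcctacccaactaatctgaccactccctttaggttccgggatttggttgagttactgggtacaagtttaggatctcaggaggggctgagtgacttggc
H2-Aa: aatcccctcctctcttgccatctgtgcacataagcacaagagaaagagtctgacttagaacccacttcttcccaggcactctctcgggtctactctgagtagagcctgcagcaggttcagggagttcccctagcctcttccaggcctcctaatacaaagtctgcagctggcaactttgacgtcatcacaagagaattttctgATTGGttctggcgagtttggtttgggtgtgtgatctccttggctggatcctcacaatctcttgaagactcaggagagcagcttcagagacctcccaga
CCAAT was present on either strand in 4 of the 5 tested class II genes matched in the RefSeq table (H2-Aa, H2-DMa, H2-DMb1 and H2-Eb1) and in 37.4% of all 32851 promoters. A match is a run of letters and not evidence of a bound site.

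In the interferon gamma list 12 of 13 tested genes had a higher value in the null pool in sample 1 and 8 of 13 in sample 2. In 6 of the 13 both null pools lay above the wild-type pools, against 11.3% of all tested probe sets, and 0 were called. In 1 of the 13 both lay below, against 12%. The median difference was 1.32 in sample 1 and 0.04 in sample 2, or 0.75 over both, and without the sample 1 null pool it was 0.01. Ido1, the enzyme that degrades tryptophan, read 44.4 and 47.0 in the wild-type pools and 371 and 80.2 in the null pools; a second, untested Ido1 probe set differed by 0.40. Cxcl9, a chemokine for T cells, read 26.3 and 24.1 against 181.8 and 26.85, and it passed the filter only through its sample 1 null value. Gbp2b, a guanylate-binding protein, read 229 and 251 against 766 and 272. For Cxcl9 and Gbp2b the sample 2 null pool thus lay just above the wild-type pools, by 0.11 in the sample 2 pair. Ciita, the master regulator of class II genes, read 54.5 and 42.4 against 40.4 and 40.4. The MHC class I and antigen processing list had 3 of 11 tested genes above and none below, with 0 called. The shares over all tested probe sets were 11.3% and 12%, and the list's pair medians were 0.66 and -0.08. Psmb9, a subunit of the immunoproteasome, read 223 and 238 against 892 and 277. The C57BL/6J medians were 1.25 for the interferon gamma list and 0.25 for the class I list. In that strain the sample 2 null pool was the higher null pool for Iigp1 (163 and 670) and Ido1 (118 and 206).

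Type I interferon-induced genes, the antiviral set, were mostly lower in the null pools. Of 18 tested genes, 7 had both null pools below both wild-type pools (Isg15, Ifi27l2a, Ifit1, Irf9, Mx2, Irf7 and Ifih1) and 1 had both above (Ifi202b), against 12% and 11.3% of all tested probe sets. None was called, and 4 had an unadjusted limma p under 0.05. The Ifi202b probe set passed the filter only through its null values. The median difference was -0.42 in sample 1 and -0.67 in sample 2, or -0.50 over both, and in C57BL/6J it was 0.08. It was -0.86 without the sample 1 null pool and -0.16 without the sample 2 null pool. Isg15, a ubiquitin-like modifier, read 773 and 624 in the wild-type pools and 513 and 118 in the null pools. Ifit1, which binds foreign RNA, read 489 and 600 against 322 and 196. Both genes were lowest in the sample 2 null pool, with differences of -1.44 ± 0.58 and -1.07 ± 0.43 (SE). Irf9, a part of the transcription factor that type I interferon activates, read 354 and 280 against 199 and 151, nearly the same shift in both pairs (-0.79 and -0.85). Rsad2, the antiviral enzyme viperin, overlapped, at 58.5 and 101 against 82.9 and 15.8.

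The promoters of Isg15 and Ifit1 are shown for the interferon-stimulated response element, searched on both strands as paired GAAA letters with any 2 bases between them; capitals mark the matches, which overlap in Isg15. The Isg15 window is chr4:156200769-156201068 on the minus strand and the Ifit1 window chr19:34640639-34640938 on the plus strand.
Isg15: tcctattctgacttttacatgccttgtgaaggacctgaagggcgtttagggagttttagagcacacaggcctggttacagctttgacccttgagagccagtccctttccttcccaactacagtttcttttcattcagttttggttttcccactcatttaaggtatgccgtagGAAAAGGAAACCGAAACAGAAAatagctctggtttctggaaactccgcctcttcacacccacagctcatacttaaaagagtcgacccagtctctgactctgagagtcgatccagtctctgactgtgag
Ifit1: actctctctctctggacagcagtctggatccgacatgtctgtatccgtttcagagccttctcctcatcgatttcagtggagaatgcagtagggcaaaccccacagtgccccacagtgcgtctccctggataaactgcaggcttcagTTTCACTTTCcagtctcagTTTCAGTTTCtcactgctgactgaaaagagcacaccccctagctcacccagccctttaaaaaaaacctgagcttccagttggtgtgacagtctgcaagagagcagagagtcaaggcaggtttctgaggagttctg
These letters were found in 6 of the 13 type I interferon genes matched in the table (Eif2ak2, Ifih1, Ifit1, Ifit3, Isg15 and Rsad2). By promoter this was 6 of 17, beside 3.44% of all promoters. They were also found in 8 of the 10 matched genes (8 of 12 promoters) of the interferon gamma list, whose median had the opposite sign. The interferon gamma-activated site, searched as TTCNNNGAA, was in 5 of the 13 genes (5 of 17 promoters) and in 4 of the 10 (4 of 12 promoters). It was in 8.3% of all promoters.

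Of 16 tested genes of cholesterol synthesis, 14 were higher in the null pool in sample 1 and 12 in sample 2. Of these genes 9 had both null pools above both wild-type pools and none had them below, against 11.3% and 12% of all tested probe sets; 0 were called and 7 had an unadjusted limma p under 0.05. The median difference was 0.74 in sample 1 and 0.20 in sample 2, or 0.51 over both, and 0.06 in C57BL/6J. Without the sample 1 null pool it was 0.37, and with the hybridisation day as a block 0.27. Mvd, which makes isopentenyl pyrophosphate, read 43.4 and 40.4 in the wild-type pools and 139 and 72.7 in the null pools. Sqle, squalene epoxidase, read 366 and 466 against 958 and 626. Idi1, an isomerase of isoprenoid units, read 356 and 518 against 934 and 618. In these genes the sample 1 null pool was the highest and the sample 2 null pool the next. Lss, lanosterol synthase, read 111 and 71.1 against 191 and 128, with pair differences of 0.72 and 0.76. Cyp51 and Sc5d, enzymes that act after lanosterol is made, overlapped: Cyp51 read 116 and 159 against 156 and 123, and Sc5d 84.9 and 55.2 against 80.2 and 51.8. The Sc5d probe sets differed in sign, at -0.07 and 0.19.

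The promoters of Mvd and Idi1 are shown with their CCAAT boxes in capitals, on either strand. The Mvd window is chr8:122443373-122443672 on the minus strand and the Idi1 window chr13:8885356-8885655 on the plus strand.
Mvd: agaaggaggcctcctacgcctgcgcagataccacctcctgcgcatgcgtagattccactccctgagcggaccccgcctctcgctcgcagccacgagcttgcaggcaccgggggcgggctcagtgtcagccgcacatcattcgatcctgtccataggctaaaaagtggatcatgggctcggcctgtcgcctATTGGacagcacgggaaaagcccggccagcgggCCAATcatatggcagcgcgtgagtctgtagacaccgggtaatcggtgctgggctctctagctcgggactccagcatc
Idi1: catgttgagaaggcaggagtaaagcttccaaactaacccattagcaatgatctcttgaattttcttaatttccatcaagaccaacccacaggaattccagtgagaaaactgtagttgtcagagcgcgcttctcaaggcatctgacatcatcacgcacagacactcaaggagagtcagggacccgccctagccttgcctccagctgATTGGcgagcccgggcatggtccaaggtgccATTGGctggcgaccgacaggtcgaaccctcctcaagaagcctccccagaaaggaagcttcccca
CCAAT was present in 13 of the 13 cholesterol genes matched in the table (13 of 15 promoters). The sterol response element, searched as TCACNCCAC, was in 1 of these genes (Hmgcs1), or 1 of 15 promoters, and in 1.24% of all promoters. Neither printed promoter holds that sterol element, and the absence of these letters from a window of 300 bases says nothing of the factor.

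**Figure D3:**
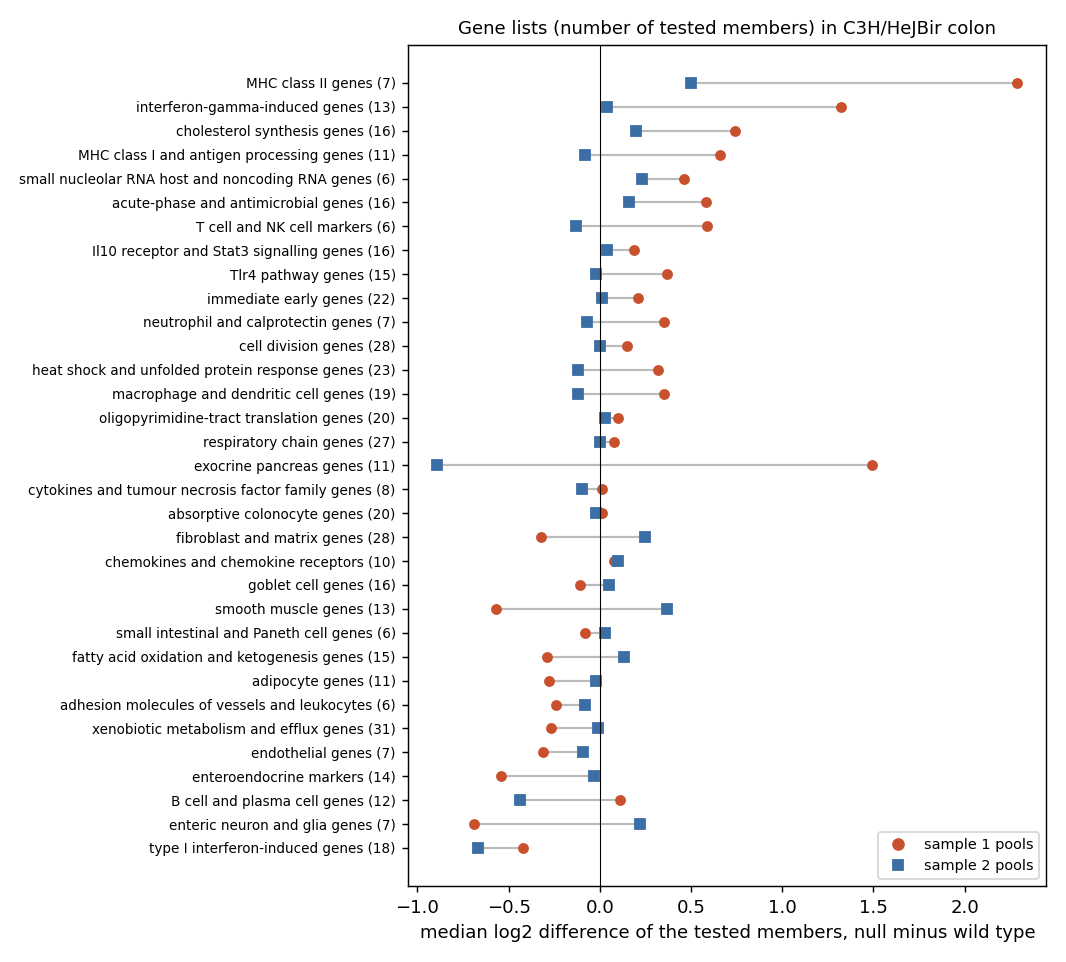
Median log2 difference between null and wild type over the tested members of each gene list (their number in parentheses), for the sample 1 pools (circles) and the sample 2 pools (squares). The MHC class II list stands at 2.29 and 0.50, cholesterol synthesis at 0.74 and 0.20, type I interferon at -0.42 and -0.67, and exocrine pancreas at 1.49 and -0.89.

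The genes with the largest differences in the sample 1 pair, which were chosen for that, included several linked to neutrophils and the acute phase. S100a8, a subunit of calprotectin in neutrophils, read 22.2 and 34.1 in the wild-type pools and 581 and 9.53 in the null pools. Cxcl5, a neutrophil chemokine, read 18.13 and 18.03 against 294 and 22.9. Lrg1, a secreted glycoprotein of the acute phase, read 25.9 and 30.4 against 361 and 56.5. The high value belonged to the sample 1 null pool in all 3, and for S100a8 the sample 2 null pool was the lowest of the 4. The neutrophil list, which holds S100a8 but neither Cxcl5 nor Lrg1, had no non-overlapping gene among 7 tested, with pair medians of 0.35 and -0.07. Its members did not move together in sample 1: Csf3r, the receptor for granulocyte colony-stimulating factor, differed by -1.55 there and Cyba, a subunit of the neutrophil oxidase, by 0.00. Without the sample 2 null pool the differences rest on 1 null pool: 3.39 for Cxcl5, 3.25 for Lrg1 and 3.93 for S100a8. Plet1 then differed by 2.51 and Itln1 by -2.66. The S100a8 and Cxcl5 probe sets passed the filter only through their sample 1 null value. Itln1, an intestinal lectin that binds microbial sugars, read 1570 and 1844 in the wild-type pools and 261 and 1037 in the null pools.

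Among antimicrobial genes Reg3g, an antibacterial lectin, read 2646 and 2666 in the wild-type pools and 7003 and 3922 in the null pools. Saa2, serum amyloid A, read 3497 and 3292 against 5292 and 5040, so its pairs differed alike, by 0.60 and 0.61. Of 16 tested acute-phase and antimicrobial genes 5 had both null pools above and 2 both below, against 11.3% and 12% of tested probe sets. None of these genes was called, and the list's pair medians were 0.58 and 0.16. Socs3, the feedback inhibitor that Stat3 induces, read 22.6 and 96.4 against 290.0 and 133, and Osmr, the oncostatin M receptor, 41.2 and 33.8 against 104 and 53.2. The pair differences of Socs3, 3.16 and 0.42, were far apart. Stat3 itself read 294 and 338 against 499 and 414, above the wild-type pools in both pairs. In the list of the Il10 receptor and Stat3 signalling, 5 of 16 tested genes were above, 2 below and 0 called, with pair medians of 0.19 and 0.04. The shares over all tested probe sets were 11.3% above and 12% below. Il10rb, a chain of the Il10 receptor, read 578 and 522 against 529 and 500.

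The Tlr4 pathway list is of interest because this strain lacks a working receptor. Of its 15 tested genes 6 were above and 1 below, against 11.3% and 12% of all tested probe sets. None of these genes was called, and their median was 0.18, with pair medians of 0.37 and -0.02. Cd14, the co-receptor for lipopolysaccharide, read 1696 and 1881 in the wild-type pools and 3830 and 2338 in the null pools, a difference of 0.74 ± 0.28 (SE) against 0.58 in C57BL/6J. Lbp, which hands lipopolysaccharide to Cd14, read 61.1 and 73.2 against 218 and 102. Both null pools exceeded the wild-type pools for both genes. Pla2g2a, a secreted antibacterial phospholipase, read 2013 and 1172 against 5446 and 1283, so its sample 2 null pool lay between the wild-type pools.

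Genes of B cells and plasma cells set the sample 2 null pool apart in the lower direction. Ighg3, an immunoglobulin heavy chain constant region, read 437 and 658 in the wild-type pools and 292 and 31.5 in the null pools. Igha, the heavy chain of IgA, read 2578 and 2246 against 3241 and 865, and Jchain, which joins IgA and IgM polymers, 565 and 662 against 655 and 336. The sample 2 null pool was the lowest in all 3, and on these probe sets only Ighg3 was below the wild-type pools in both pairs. On the 2 other tested Ighg3 probe sets the sample 1 null pool was the highest of the 4, at 259 and 118, and the sample 2 null pool the lowest, at 32.4 and 25.9; a second tested Igha probe set was lower in both null pools. Over 34 tested immunoglobulin probe sets, a set formed after the values were seen, 17 were lower by over 1 unit in sample 2 and 0 in sample 1, with medians of -1.01 and 0.03. Immunoglobulin probe sets share sequence, so they are not independent readings. Of 12 tested B and plasma cell genes 2 were below in both null pools, 1 was above and 0 were called, with pair medians of 0.11 and -0.44. Cd79a, which was below, passed the filter only through its wild-type values. The shares over all tested probe sets were 12% below and 11.3% above. Ms4a1 (CD20) read 85.5 and 94.1 against 55.7 and 61.2. In pooled tissue RNA, fewer cells of a type and less RNA per cell cannot be told apart. The light chain segment Igkv7-33 went against the others, at 54.6 and 33.0 against 83.5 and 212. Granzyme B (Gzmb), of cytotoxic lymphocytes, read 26.1 and 21.0 against 76.6 and 36.1. Of 24 T cell and natural killer cell markers on the array 6 were tested. Of these 2 were above in both null pools, 1 was below and 0 were called. Gzmb was among the 2 above, and the other passed the filter only through its null values. The shares over all tested probe sets were 11.3% above and 12% below. Pair medians of this list were 0.59 and -0.13, and Klrk1 (-0.45) and Cd4 (-0.10) differed in the lower direction. Ifng itself was too weak to be tested.

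**Figure D4:**
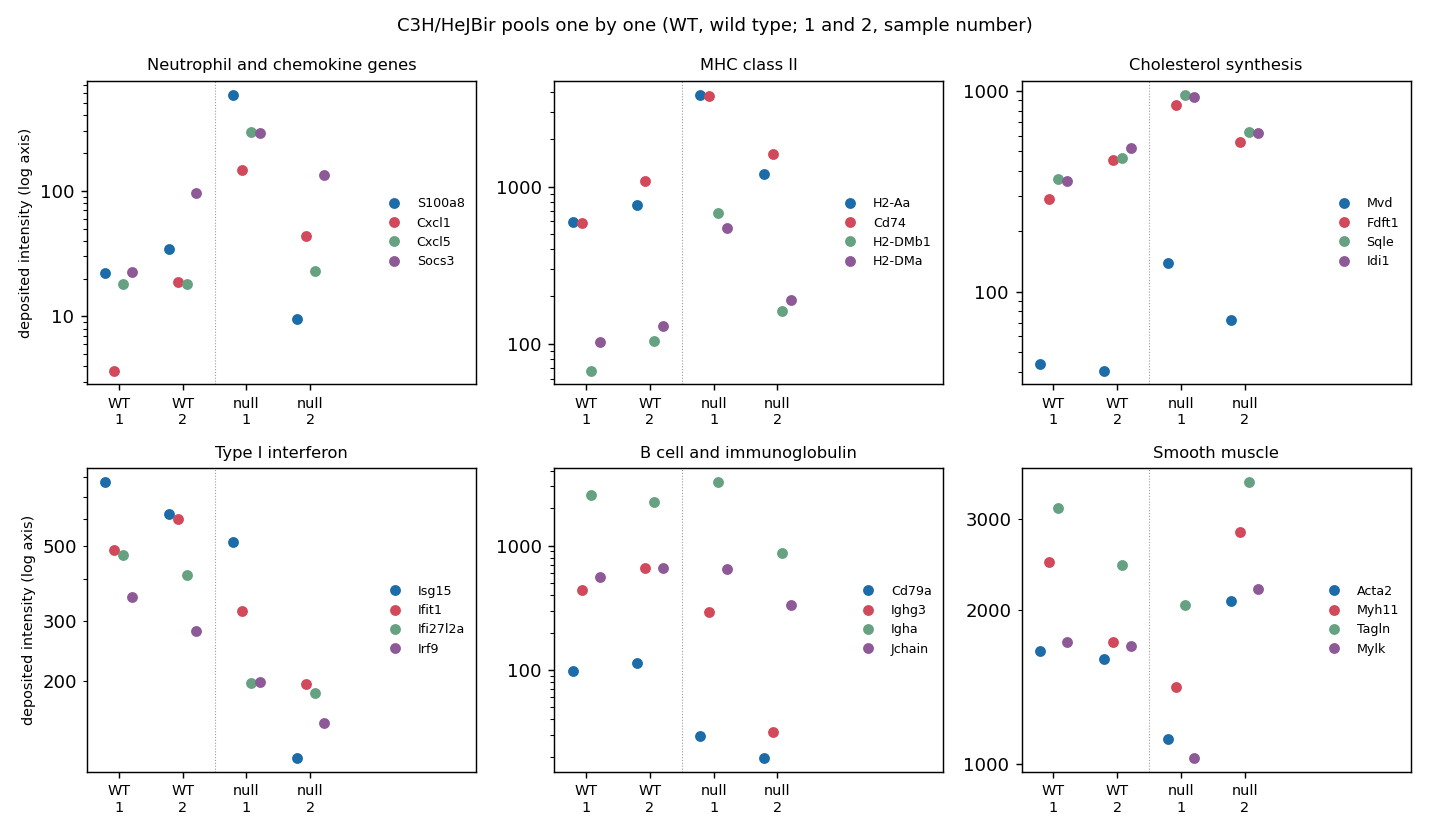
Intensity in each C3H/HeJBir pool (log axes that differ between panels) for 4 genes each of 6 lists; points of a pool are set side by side so that they do not hide each other. The class II panel shows H2-Aa at 3834 in the sample 1 null pool and at 1203 in the sample 2 null pool; in the smooth muscle panel the sample 1 null pool is the lowest and the sample 2 null pool the highest.

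Epithelial lists shifted little as a whole. Of 20 tested genes of absorptive colonocytes 5 were above in both null pools and 3 below, with a median of 0.02 and pair medians of 0.01 and -0.02. Of 16 goblet cell genes 1 was above and 4 below, with a median of -0.04 and pair medians of -0.11 and 0.05. None was called, and the shares over all tested probe sets were 11.3% above and 12% below. Muc13, a membrane mucin, read 4840 and 4486 in the wild-type pools and 8158 and 6191 in the null pools. Clca1, a secreted goblet cell protein, read 8852 and 8495 against 5801 and 8820. Muc13 was thus higher in both null pools, and Clca1 was lower in the sample 1 null pool alone. Of 31 tested genes of xenobiotic metabolism 6 were below in both null pools, 1 was above and 0 were called, beside those same shares. Their pair medians were -0.27 and -0.01. Abcb1a, an efflux pump, read 1282 and 1440 against 411 and 1278. Fatty acid oxidation genes had no non-overlapping member among 15, with pair medians of -0.29 and 0.13.

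Markers of the muscle layer and of the pancreas differed between the null pools in opposite directions. In sample 1 the null pool was higher for 1 of 13 tested smooth muscle genes, and in sample 2 for 13 of 13, with medians of -0.57 and 0.37. Acta2, smooth muscle actin, read 1666 and 1607 in the wild-type pools and 1119 and 2084 in the null pools. The enteroendocrine list had pair medians of -0.54 and -0.03: Sst, somatostatin, read 129 and 97.6 against 24.2 and 109. Vip, a neuropeptide of enteric neurons, read 71.9 and 54.9 against 4.64 and 54.2, low in the sample 1 null pool alone as Sst was. Exocrine pancreas genes in no other list (11 of 13 on the array) summed to 2887 and 2749 in the wild-type pools and to 5445 and 1578 in the null pools. The sum was thus highest in the sample 1 null pool and lowest in the sample 2 null pool, and Prss2, a trypsinogen, read 136 and 215 against 1107 and 13.9. The defining pancreas gene Cela1, at 1458 and 1332 against 1118 and 840.1, did not follow that order. Xist, which is transcribed in female cells, read 327 and 7.13 in the wild-type pools and 243 and 12.9 in the null pools, and Eif2s3y, on the Y chromosome, 318 and 411 against 242 and 391. Xist therefore differed between sample 1 and sample 2 in both genotypes. Meg3, an imprinted noncoding RNA, read 13.5 and 13.4 against 13.3 and 72.3, so on this probe set the sample 2 null pool alone was high; on the second Meg3 probe set, at 28.6 and 38.0 against 56.4 and 61.9, both null pools were. Smooth muscle, pancreas and hormone markers moved with the same pool that carried the high class II, interferon gamma and neutrophil values, and their part in those values was not tested.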

How the data were processed

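Total colon RNA of 8 mouse pools, 2 in each of 4 groups, was read on Affymetrix MG_U74Av2 arrays. The deposited values are linear intensities, 1 per probe set, from 0.03 to 12860; the authors had brought them to a common level, as the trimmed means differ by a factor of at most 1.009, and no source used here names the summary method. For arrays, the number of pools limits the precision. Hybridisation days (3 in all) came from the run settings.

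Here log2(intensity + 11.07, the 20th percentile) entered limma 3.58.1 (R 4.3.3), with 4 group means over all 8 pools, moderated variances (4 residual and 4.23 prior degrees of freedom), two-sided tests and Benjamini-Hochberg adjustment over the 7453 probe sets with a mean of at least 37.03, the 40th percentile. The fit was tested on simulated data. Probe sets were named by the platform annotation: 10833 carried 1 symbol, 396 several and 1193 none; 10817 of the first matched RefSeq (GRCm38.p6). A list reads a gene by its brightest probe set, and 670 of the 839 symbols of 35 lists were on the array, 479 of them tested.

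Named were all called probe sets, the 12 in each direction with the widest gap, the 8 with the smallest p, the 8 with the largest difference in each sample pair, up to 6 members of a list by size of difference, the 3 smallest p of the strain difference, and Il10, Cd14, Gbp2b and Pla2g2a; not all of these are printed. Ctss, Ciita, Cyba, Cyp51, Sc5d, Il10rb, Jchain, Acta2, Saa2, genes listed as not overlapping or as holding a motif, and marker genes fall outside this rule and were chosen after their values were seen. Genes, lists and tests were chosen with earlier results of these data known. Alternatives changed the pseudocount, filter, scaling, moderation, blocks, probe-set handling, threshold and pools.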

Additional observations from a re-analysis of the deposited data

How the results depend on the processing

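With 2 pools a group, few results stand on their own. The number of probe sets called higher was 1 with the 50th percentile as pseudocount, a filter at the 60th percentile, quantile normalization, trend and robust moderation, or a threshold of 0.1. It was 0 with the 5th percentile as pseudocount, without a filter, with arrays scaled to a common median, in a fit of the C3H/HeJBir pools only, with the hybridisation day as a block, and after averaging each gene's probe sets. Leaving out 1 pool gave 0 to 6 calls in the higher direction, the 6 without the sample 2 null pool, and 0 to 1 in the lower. The strain difference had 0 calls under all of these settings. The adjusted p of Gas5 lay between 0.00252 and 0.778 over all alternatives.

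Sample numbers do not pair the pools by label. Deviations of same-numbered pools correlated at 0.198 to 0.332 over the 6 pairs of groups. With the sample number as a replicate block 1 probe set was called higher and 0 lower, and the adjusted p of Gas5 was 0.00704.

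Of 86 probe sets of named genes, 9 changed sign under a setting other than leaving out a pool. With the day as a block these were Acta2 (0.14), Car1 (0.09), Ciita (0.32), Ctss (-0.00, as under quantile normalization), Cyp51 (-0.19) and Xist (0.42). Xist also turned with the 5th percentile as pseudocount (0.12) and a common median (0.00), Prss2 with the 50th percentile (0.33) and Cyba (0.14) and Sc5d (0.06) with probe sets averaged. Leaving out 1 pool turned 20. Their values lay between -0.54 and 0.35 for Acta2, -0.13 and 0.04 for Car1, -0.93 and 0.01 for Cdx2, and -0.58 and 0.02 for Clca1. They lay between -1.41 and 0.01 for Csf3r, -0.09 and 0.02 for Cyba, -0.10 and 0.20 for Ctss, and -0.18 and 0.23 for Cyp51. They lay between -0.87 and 0.01 for Eif2ak2, -0.56 and 0.11 for Eif2s3y, -0.05 and 1.84 for H2-Eb1, -1.46 and 0.43 for Igha, -0.84 and 0.10 for Jchain, and -0.01 and 1.77 for Meg3. For Pla2g2a the range was -0.26 to 1.82, for Prss2 -2.87 to 2.62, for Rsad2 -1.72 to 0.09, for S100a8 -0.91 to 3.93, for Sc5d -0.34 to 0.20 and for Xist -2.12 to 2.10. Of 35 list medians, 12 changed sign under other settings and 21 on leaving out a pool. The causes were not tested.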
